A study of Mus musculus with 24 samples.

Results

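The 8 genes described here encode the core of the MTOR (mechanistic target of rapamycin kinase) complexes: Mtor, Rptor, Rictor, Mlst8, Akt1s1, Deptor, Mapkap1 and Rheb. They were taken by name from a table of estimated read counts for 55487 genes, and all 8 passed the filter on low counts that left 15401 genes for testing. Messenger RNA was sequenced from 24 cultures of mouse embryonic fibroblasts (MEFs), in 6 groups of 4 libraries. Wild-type (WT) MEFs and MEFs lacking both Tfeb and Tfe3 (tfeb tfe3 DKO) received DMSO as vehicle, torin1 or MK-8722. Torin1 is an ATP-competitive inhibitor of the MTOR kinase, and MK-8722 is an activator of AMP-activated protein kinase (AMPK). The comparisons ask how RNA for the MTOR complexes moved with each drug, and whether it did so alike with and without the 2 transcription factors. Each genotype was represented by its own MEF line from an outside laboratory, so genotype and line cannot be told apart. The labels give no dose, and the study's text names a single concentration of each drug for these cells. The length of treatment before sequencing is not given in the sources used here.

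MTOR works in a pair of complexes that share the kinase, the MLST8 subunit and the inhibitor DEPTOR. MTORC1 is defined by the scaffold RPTOR and carries the inhibitory subunit AKT1S1 (PRAS40), and at the lysosome it is switched on by the small GTPase RHEB. MTORC2 is defined by RICTOR and MAPKAP1 (SIN1) and phosphorylates kinases such as AKT and SGK. In nutrient-fed cells MTORC1 phosphorylates TFEB and TFE3 and keeps them in the cytosol, and on release they enter the nucleus and bind E-box motifs of lysosomal and autophagy genes.

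Tfeb RNA was low in the DKO line, at 1.34 to 2.65 CPM (counts scaled to the library total) in its 12 libraries against 14.01 to 25.0 CPM in the 12 WT libraries. Tfe3 RNA was not lower there, at 121 to 126 CPM in DKO against 119 to 122 CPM in WT under DMSO. Total counts therefore check the genotype label for Tfeb alone. Libraries held 24668921 to 33332562 counts (median 27988364), and RNA integrity numbers were 9.7 to 9.9 except for 7.9 in DKO MK-8722 replicate 3. Of 12 fibroblast markers, 10 averaged over 1 TPM (abundance per unit of transcript length and library total), whereas Lum and Dcn were below it. Ptprc and Adgre1, which define leukocytes, averaged 0.0175 and 0 TPM, but Cd68, which is also a lysosomal protein gene, raised the summed leukocyte list from 2.22–3.43 TPM in WT DMSO to 14.6–22.03 TPM in WT MK-8722. Krt8 lifted the epithelial list to 8.48–12.3 TPM in DKO torin1 against 2.34–3.92 TPM in DKO DMSO. Tubb3, a neuronal tubulin, brought the neural list to 23.4–35.9 TPM in WT DMSO against 12.1–19.5 TPM in WT torin1 and 10.9–18.9 TPM in WT MK-8722, and Des, a muscle filament gene, brought the muscle list to 5.02–5.90 TPM in WT torin1 against 2.50–3.18 TPM in WT DMSO and under 1 TPM in DKO. The part of these markers in the results below was not tested. Each treatment had 1 library of every passage used for its line, passages 7, 8, 9 and 11 in WT and 8, 9, 10 and 11 in DKO. The main fit and the test of the Rptor to Rictor ratio did not pair libraries by passage. Fits with MEF passage as a block, and fits without the WT libraries of passage 11 or the DKO libraries of passage 8, were run. The labels name separate replicates without saying that they were independent experiments, so p-values measure the spread between these cultures.

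On the GRCm38 genome the members lie on 7 chromosomes, and values are sums over their annotated transcripts. The shared subunits are Mtor (ENSMUSG00000028991, chr4:148448611-148557683), Mlst8 (ENSMUSG00000024142, chr17:24473551-24479078) and Deptor (ENSMUSG00000022419, chr15:55112317-55259271). The genes of MTORC1 and its activator are Rptor (ENSMUSG00000025583, chr11:119602905-119899576), Akt1s1 (ENSMUSG00000011096, chr7:44848991-44855421) and Rheb (ENSMUSG00000028945, chr5:24802823-24842624). Those of MTORC2 are Rictor (ENSMUSG00000050310, chr15:6708379-6800401) and Mapkap1 (ENSMUSG00000038696, chr2:34406771-34624950). By the spans of whole genes, Rptor, Mlst8, Akt1s1, Mtor and Deptor overlap Rptoros, Bricd5, Tbc1d17, Angptl7 and Gm9920, respectively, on the opposite strand. Mapkap1 and Rptor also overlap pseudogenes there. On their own strand, Rheb, Akt1s1, Mtor and Rptor overlap non-coding RNA genes, and Mapkap1 overlaps a pseudogene. Whether these overlaps reach the counted exons was not checked. The strand setting of the counting is not given in the sources used here, so any part of neighbouring genes in these counts is not known.

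TFEB and TFE3 bind the E-box CACGTG, so the promoters of the members were searched for it. RefSeq promoter windows (GRCm38.p6, 250 bases before to 50 bases after the start) were found for 7 of the 8 genes, Deptor being the one without. The 4 windows below belong to the genes that were called with torin1 in at least 1 line, by the rule given below, and had a single window. They were chosen after their values were seen. The windows are those of Rheb (chr5:24842312-24842611, minus strand), Mtor (chr4:148448332-148448631, plus strand), Rptor (chr11:119602655-119602954, plus strand) and Rictor (chr15:6708131-6708430, plus strand), each written 5′ to 3′ with any motif match in capitals.
Rheb: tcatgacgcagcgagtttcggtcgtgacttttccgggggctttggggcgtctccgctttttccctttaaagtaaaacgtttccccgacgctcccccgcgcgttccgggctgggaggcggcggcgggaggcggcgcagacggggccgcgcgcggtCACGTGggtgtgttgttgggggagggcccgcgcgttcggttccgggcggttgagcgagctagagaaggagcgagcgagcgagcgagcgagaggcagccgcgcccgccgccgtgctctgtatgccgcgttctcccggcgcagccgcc
Mtor: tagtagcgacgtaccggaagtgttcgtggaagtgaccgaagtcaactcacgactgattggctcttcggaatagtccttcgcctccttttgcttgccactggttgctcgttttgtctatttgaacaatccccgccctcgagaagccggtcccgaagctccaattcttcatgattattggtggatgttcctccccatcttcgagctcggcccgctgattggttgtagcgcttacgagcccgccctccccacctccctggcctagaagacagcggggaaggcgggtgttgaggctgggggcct
Rptor: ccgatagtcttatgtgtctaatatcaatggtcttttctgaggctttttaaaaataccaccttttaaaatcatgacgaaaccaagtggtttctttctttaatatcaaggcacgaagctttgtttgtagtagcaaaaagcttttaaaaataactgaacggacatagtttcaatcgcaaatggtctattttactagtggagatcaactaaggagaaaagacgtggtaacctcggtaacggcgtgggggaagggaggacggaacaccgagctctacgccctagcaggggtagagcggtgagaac
Rictor: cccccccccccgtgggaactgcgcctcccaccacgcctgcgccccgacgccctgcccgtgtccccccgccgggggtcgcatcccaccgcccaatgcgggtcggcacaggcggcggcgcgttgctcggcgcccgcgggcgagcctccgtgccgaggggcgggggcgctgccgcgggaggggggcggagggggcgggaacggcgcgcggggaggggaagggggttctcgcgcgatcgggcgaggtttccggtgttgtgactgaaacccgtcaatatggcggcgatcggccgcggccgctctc
Of the 4, the Rheb window alone held CACGTG, beginning 96 bases before the start, a palindrome that 7.15% of all 32851 mouse promoter windows contain. The related M-box CATGTG, read on the other strand as CACATG and held by 14.2% of windows, was present in the Akt1s1 window, 193 bases before the start. The forkhead motif TGTTTAC, read on the other strand as GTAAACA and held by 3.65% of windows, was present in Mapkap1, whose 2 overlapping windows share 1 match. The windows of Mtor, Rptor, Rictor and Mlst8 held none of the 3 motifs. The Rictor window was the richest in G and C of the 4 shown, at 78.3%, and the Rptor window the poorest, at 41.7%. These matches describe letters in a window and are not evidence of binding. Distances are from the RefSeq start of the window. The Mtor, Rictor and Mlst8 windows held the annotated start of the gene's transcript with the most counts, and the others did not. That start was at base 24842624 for Rheb, 44849224 for Akt1s1, 119603149 for Rptor and 34407183 for Mapkap1. The Rheb and Akt1s1 windows lay downstream of it, and those of Rptor and Mapkap1 upstream. Windows placed at those starts were not searched.

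**Figure D1:**
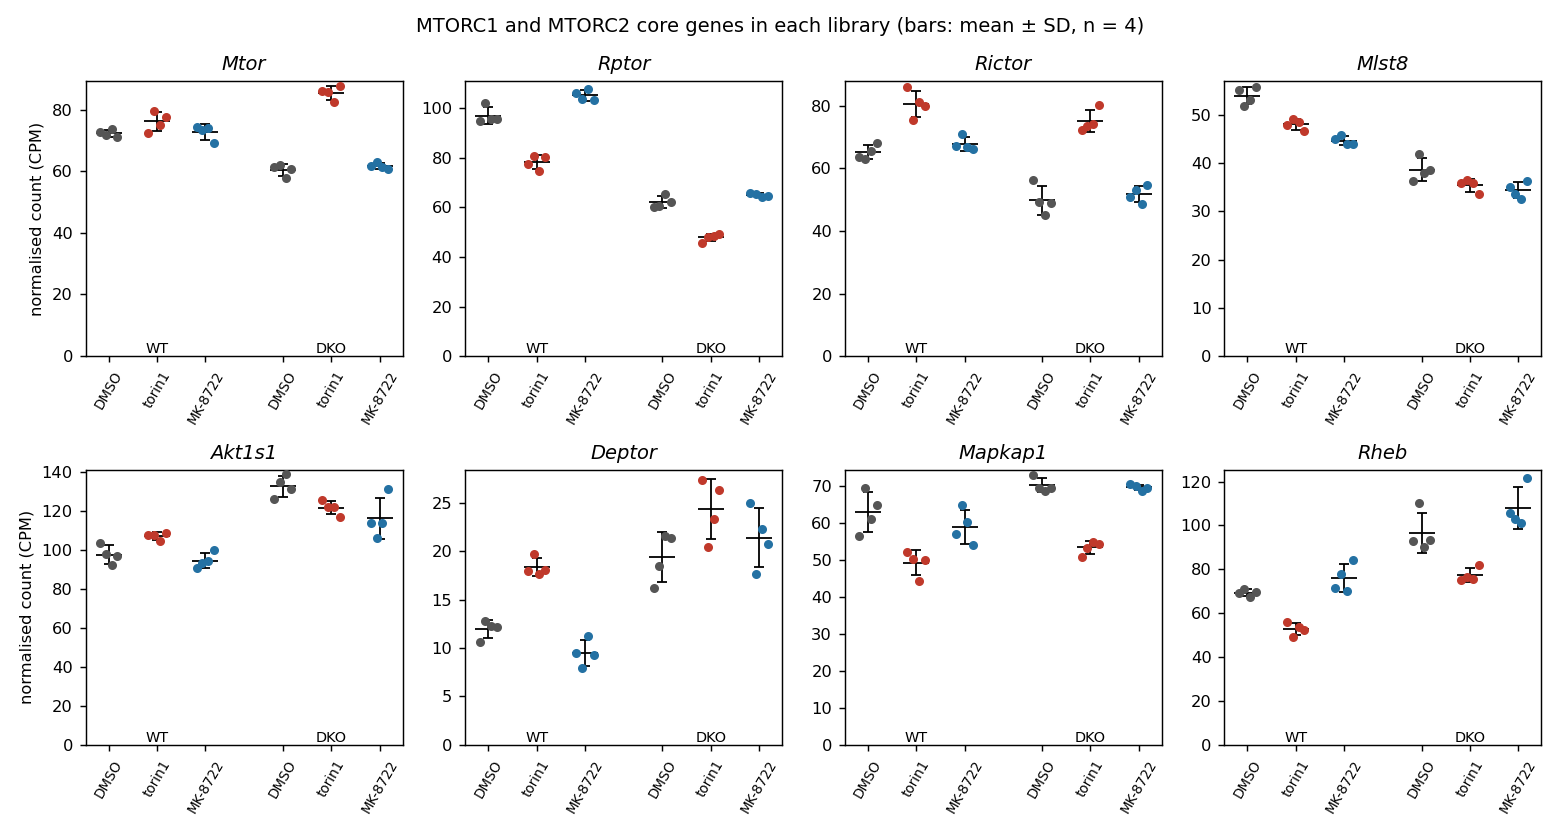
Normalised counts (CPM, linear axis from 0) of the 8 genes in every library, with WT on the left and DKO on the right of each panel; points are libraries, coloured by treatment, and bars give the mean ± SD of 4 libraries. Mtor in DKO torin1 (82.4 to 87.7 CPM) stands above DKO DMSO (57.8 to 62.1 CPM), while Rptor is lower under torin1 than under DMSO in both lines.

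In WT MEFs torin1 lowered Rptor, Mapkap1 and Rheb and raised Rictor and Deptor. A gene was called when edgeR's quasi-likelihood test gave a Benjamini-Hochberg adjusted p under 0.05 over all genes tested and the fold change was at least 1.2, the thresholds used by the study. By that rule 5 of the 8 members were called, against 47.1% of all genes tested, so the share of members that changed was not far from that of genes in general. The median log2 fold change of the members was -0.05, and that of all genes 0.05. Values for single genes follow as CPM, scaled by library size and TMM factors.

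Rptor, the substrate-recruiting scaffold of MTORC1, had 94.8, 102.2, 95.8 and 95.7 CPM in WT DMSO. Under torin1 it had 77.5, 80.8, 74.7 and 80.2 CPM, every library below every control. The log2 fold change, given here and below ± its standard error, was -0.31 ± 0.03 (adjusted p = 6.4e-08). Rheb, the GTPase that activates MTORC1, had 69.4, 71.1, 67.2 and 69.6 CPM in WT DMSO. It had 56.1, 49.2, 53.7 and 52.1 CPM under torin1, again without overlap. Its log2 fold change was -0.39 ± 0.07 (adjusted p = 2.4e-05). Mapkap1, a subunit of MTORC2, spanned 56.7 to 69.4 CPM with DMSO and 44.4 to 52.3 CPM with torin1. Its groups did not overlap either, and the log2 fold change was -0.36 ± 0.06 (adjusted p = 1.36e-05). When libraries were scaled by their size alone, the changes of Rptor (-0.22) and Mapkap1 (-0.26) fell short of the threshold, while the median of all genes moved from 0.05 to 0.14.

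Rictor, the scaffold of MTORC2, moved the other way. It had 63.7, 63.0, 65.7 and 68.1 CPM in WT DMSO and 85.9, 75.5, 81.2 and 79.8 CPM in WT torin1. Each treated library was above each control, and the log2 fold change was 0.31 ± 0.05 (adjusted p = 3.98e-05). The call rested on WT torin1 replicate 1, the highest library and 1 of those of passage 11. The log2 fold change was 0.25 without it and 0.23 without the WT libraries of passage 11. Deptor, which binds and inhibits both complexes, was the least abundant member and showed the largest change of the 8. It had 10.6, 12.8, 12.3 and 12.1 CPM in WT DMSO and 17.99, 19.7, 17.6 and 18.1 CPM in WT torin1. The groups were apart, and the log2 fold change was 0.62 ± 0.11 (adjusted p = 6.57e-05), a fold change of 1.53.

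The kinase gene itself was not called in WT. Mtor had 72.8, 71.7, 73.7 and 71.1 CPM with DMSO and 72.6, 79.6, 75.0 and 77.6 CPM with torin1. These ranges overlapped, and the log2 fold change was 0.08 ± 0.03 (adjusted p = 0.0583). Mlst8, the shared WD40 subunit, was 51.9 to 55.8 CPM with DMSO and 46.6 to 49.2 CPM with torin1. Its difference of -0.17 ± 0.04 on the log2 scale (adjusted p = 0.00142) passed the p threshold but was under the 1.2-fold minimum. Akt1s1 was 92.2 to 104 CPM with DMSO and 104 to 109 CPM with torin1, a log2 difference of 0.13 ± 0.05 (adjusted p = 0.0259) that was likewise under the fold minimum.

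In tfeb tfe3 DKO MEFs torin1 called 6 of the 8 members, against 43.2% of all genes. Rptor, Mapkap1 and Rheb fell, and Rictor, Deptor and Mtor rose. Rptor had 60.04, 60.8, 65.6 and 62.4 CPM in DKO DMSO and 45.8, 48.3, 48.4 and 49.1 CPM in DKO torin1. No library crossed between the groups, and the log2 fold change was -0.38 ± 0.04 (adjusted p = 4.52e-09). Rheb had 93.1, 110.2, 90.0 and 93.6 CPM with DMSO and 75.0, 76.7, 75.6 and 82.1 CPM with torin1. The log2 fold change was -0.32 ± 0.07 (adjusted p = 2.45e-04), and it was -0.26 and no longer called without DKO DMSO replicate 2, the highest library. Mapkap1 went from 68.9–73.1 CPM to 51.0–55.0 CPM, a log2 fold change of -0.39 ± 0.06 (adjusted p = 3.71e-06).

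Mtor in the DKO line had 61.4, 62.1, 57.8 and 60.7 CPM with DMSO. With torin1 it had 86.2, 85.9, 82.4 and 87.7 CPM, all far above the controls. The log2 fold change was 0.50 ± 0.03 (adjusted p = 2.62e-11), or 1.41-fold. Rictor had 56.2, 49.3, 45.0 and 48.9 CPM with DMSO and 72.3, 73.6, 74.3 and 80.2 CPM with torin1. The groups were apart, and the log2 fold change was 0.59 ± 0.06 (adjusted p = 4.28e-09), or 1.51-fold. Deptor had 16.2, 18.5, 21.6 and 21.4 CPM with DMSO and 27.3, 20.5, 23.3 and 26.3 CPM with torin1. Its groups overlapped, and the log2 fold change of 0.33 ± 0.11 (adjusted p = 0.0161) was not called without DKO DMSO replicate 1 (0.25), without DKO torin1 replicate 1 (0.27) or without the DKO libraries of passage 8 (0.27). Mlst8 (-0.12 ± 0.04) and Akt1s1 (-0.12 ± 0.05) stayed under the fold minimum.

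**Figure D2:**
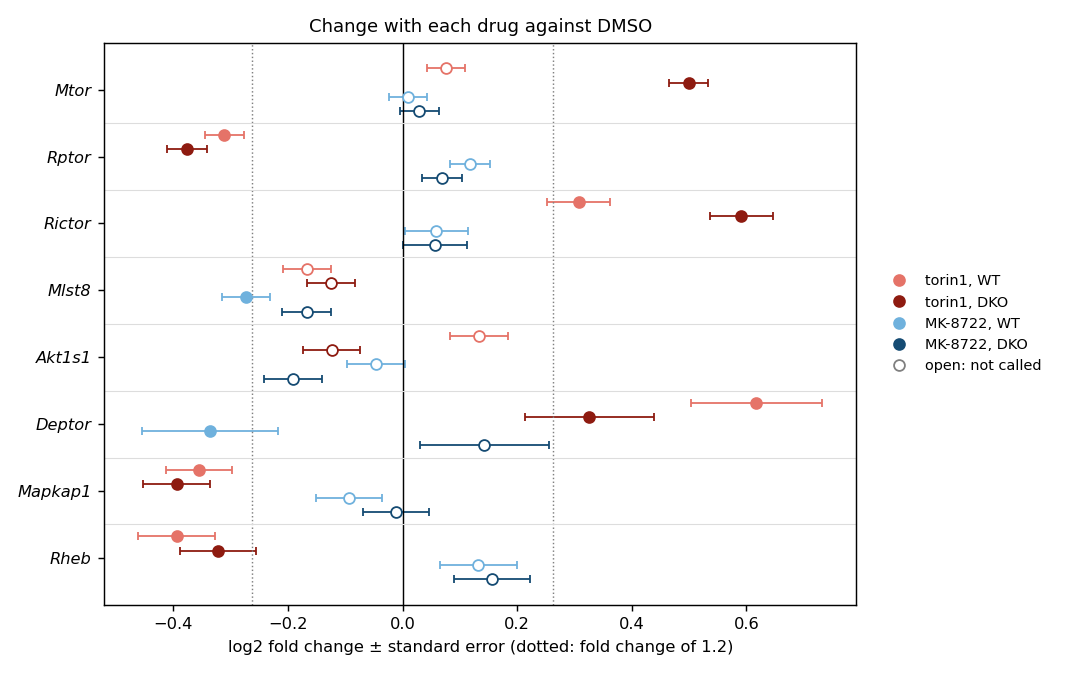
Log2 fold changes with each drug against DMSO (x axis, ± standard error) for the 8 genes (y axis) in WT and DKO MEFs; filled points passed the call rule, open points did not, and dotted lines mark a fold change of 1.2. Mtor with torin1 lies at 0.08 in WT and at 0.50 in DKO, and the MK-8722 points lie mostly between the dotted lines.

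The response to torin1 was then compared between the lines as an interaction term, the change in DKO minus the change in WT. By that test 2 of the 8 members were called, both upward, against 11.0% of all genes called either way and 4.68% called upward. Mtor rose more in DKO than in WT by 0.42 ± 0.05 on the log2 scale (adjusted p = 1.37e-06). From a lower level under DMSO, it ended in DKO torin1 above every WT torin1 library in CPM. In TPM the torin1 groups overlapped, at 20.1 to 23.3 in DKO and 22.3 to 23.7 in WT. Rictor also rose more in DKO, by 0.28 ± 0.08 (adjusted p = 0.0148), from a lower start to 72.3 to 80.2 CPM, which overlapped the 75.5 to 85.9 CPM in WT torin1. The Mtor call was kept in all 32 alternative settings run. The Rictor call was lost without DKO DMSO replicate 3 (0.24), without DKO torin1 replicate 4 (0.26) and without WT torin1 replicate 2 (0.25), and also with library size alone as the scale (0.23) and without the DKO libraries of passage 8 (0.25). Akt1s1 was just outside the rule at -0.26 ± 0.07 (adjusted p = 0.016). With library size alone it was called lower, at -0.31 (adjusted p = 0.00406), so that on that scale 1 member was called upward and 1 downward. It was also called with at least 10 counts required in every library (-0.27) and without DKO DMSO replicate 1 or 4, DKO torin1 replicate 1 or WT DMSO replicate 1 (-0.26 to -0.28). The other 5 differed by -0.29 to 0.07, and for Deptor (-0.29 ± 0.16) the difference was called with passage within each line as a block (-0.29, adjusted p = 0.0306) but not with passage as a block across the lines (adjusted p = 0.0809).

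MK-8722 left most of the 8 genes near their DMSO levels. In WT MEFs 2 members were called, both lower, against 16.1% of all genes called. Mlst8 had 55.1, 51.9, 53.0 and 55.8 CPM with DMSO and 45.0, 45.8, 43.9 and 43.9 CPM with MK-8722. Its groups did not overlap, and the log2 fold change was -0.27 ± 0.04 (adjusted p = 2.59e-05), close to the 1.2-fold minimum. Without WT DMSO replicate 4, or with library size alone, it was -0.26 and not called. Deptor had 9.44, 7.92, 11.2 and 9.26 CPM with MK-8722, overlapping the 10.6 to 12.8 CPM with DMSO. Its log2 fold change was -0.34 ± 0.12 (adjusted p = 0.0342), and the call was lost on leaving out any of 6 single libraries (WT DMSO replicates 2, 3 and 4 and WT MK-8722 replicates 1, 2 and 4), with values from -0.27 to -0.35. Rptor was 103 to 108 CPM with MK-8722, above its 4 controls. Its log2 difference of 0.12 ± 0.03 (adjusted p = 0.0121) was opposite in sign to that with torin1 and under the fold minimum. The other 5 were within -0.09 to 0.13 of DMSO on the log2 scale.

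In DKO MEFs edgeR called 0 of the 8 with MK-8722, against 8.69% of all genes. DESeq2 and limma voom called 0 as well, against 1347 and 1339 of all 15401 genes. By edgeR's adjusted p alone, without the fold minimum, Akt1s1 and Mlst8 passed, as did 3198 of all 15401 genes. Akt1s1 had the largest difference, -0.19 ± 0.05 (adjusted p = 0.00885), then Mlst8 at -0.17 ± 0.04 and Rheb at 0.16 ± 0.07 (adjusted p = 0.101). Mtor was 60.6 to 63.2 CPM with MK-8722, within 0.03 ± 0.03 of DMSO on the log2 scale. The difference between the lines in the response to MK-8722 was called for 0 of the 8 by edgeR, against 5.49% of all genes. For limma voom it was 0 and for DESeq2 it was 1, against 824 and 932 of all 15401 genes. The member with the largest difference was Deptor, whose response differed by 0.48 ± 0.16 (adjusted p = 0.0895). It was called with passage as a block, across the lines (0.49, adjusted p = 0.00917) or within each line (0.48, adjusted p = 0.00252). Libraries of the same passage and line correlated over 0.1 in their deviations from the group means in 17 of 24 pairs. It was also called without DKO MK-8722 replicate 2 (0.56) and without WT MK-8722 replicate 3 (0.57). The other 7 differed by -0.14 to 0.11 between the lines.

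Torin1 and MK-8722 were also set against each other directly. In WT, 3 of the 8 were called, against 44.9% of all genes. Deptor was higher with torin1 by 0.95 ± 0.12 on the log2 scale (adjusted p = 3.15e-07), a 1.94-fold difference. Rptor was lower with torin1, with a log2 difference of -0.43 ± 0.03 (adjusted p = 5.59e-10), as was Rheb, with -0.53 ± 0.07 (adjusted p = 5.75e-07). Mapkap1 was at -0.26 ± 0.06, on the edge of the fold minimum, and was called in 13 alternative settings, among them DESeq2 (-0.27) and without WT MK-8722 replicate 1 or 4 or WT torin1 replicate 1, 2 or 4 (-0.27 to -0.31). Rictor (0.25 ± 0.05) was called without WT torin1 replicate 2 (0.28). Mtor (0.07), Mlst8 (0.11) and Akt1s1 (0.18) were under the fold minimum. In DKO, 5 of the 8 were called, against 40.4% of all genes. Mtor (0.47 ± 0.03) and Rictor (0.53 ± 0.06) were higher with torin1, and Rptor (-0.44 ± 0.04), Rheb (-0.48 ± 0.07) and Mapkap1 (-0.38 ± 0.06) were lower. Deptor differed there by 0.18 ± 0.11 (adjusted p = 0.171). Both drugs share the same DMSO libraries in the comparisons above, and the direct comparison does not use them.

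Between the lines under DMSO, Rptor, Rictor and Mlst8 were lower in DKO, and Akt1s1, Deptor and Rheb were higher. That is 6 of the 8, against 48.2% of all genes called. Rptor showed the clearest separation, with 60.04 to 65.6 CPM in DKO and 94.8 to 102.2 CPM in WT. The log2 fold change was -0.64 ± 0.03 (adjusted p = 3.08e-13), so the DKO level was 0.64 of the WT level. Mlst8 had 36.2, 41.8, 38.0 and 38.5 CPM in DKO, below all 4 WT libraries, a log2 fold change of -0.48 ± 0.04 (adjusted p = 1.06e-09). Rictor was 45.0 to 56.2 CPM in DKO and 63.0 to 68.1 CPM in WT, a log2 fold change of -0.39 ± 0.06 (adjusted p = 2.09e-06). Mtor followed in the same direction, at 57.8 to 62.1 CPM against 71.1 to 73.7 CPM. Its log2 difference of -0.26 ± 0.03 (adjusted p = 6.7e-07) was just short of 1.2-fold, and it was called in 13 alternative settings, among them library size alone (-0.33) and without DKO DMSO replicate 1, 2 or 4 or WT DMSO replicate 4 (-0.26 to -0.27).

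The 3 members called higher in DKO follow. Akt1s1, the inhibitory subunit of MTORC1, had 126, 135, 139 and 131 CPM in DKO DMSO against 92.2 to 104 CPM in WT DMSO, a log2 fold change of 0.44 ± 0.05 (adjusted p = 7.73e-08). Deptor was 16.2 to 21.6 CPM against 10.6 to 12.8 CPM, a log2 fold change of 0.70 ± 0.12 (adjusted p = 1.39e-05). Rheb was 90.0 to 110.2 CPM against 67.2 to 71.1 CPM, a log2 fold change of 0.48 ± 0.07 (adjusted p = 1.45e-06). None of these 3 overlapped between the lines. The share of all genes without overlap is not given here, and 48.2% of all genes were called in this comparison. Mapkap1 was 68.9 to 73.1 CPM in DKO against 56.7 to 69.4 CPM in WT, overlapping, with a log2 difference of 0.16 ± 0.06 (adjusted p = 0.0221) under the fold minimum.

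Under torin1, 4 of the 8 differed between the lines, against 51.8% of all genes. Rptor (-0.71 ± 0.04) and Mlst8 (-0.44 ± 0.04) were lower in DKO, and Deptor (0.41 ± 0.11) and Rheb (0.55 ± 0.07) were higher. Mtor was here higher in DKO, by 0.17 ± 0.03 (adjusted p = 1.55e-04), the reverse of its direction under DMSO, though under the fold minimum. With library size alone as the scale, the median of all genes in this comparison moved from -0.04 to -0.16, and Mtor was at 0.04. In TPM Mtor was not higher in DKO, with means of 21.9 in DKO torin1 and 22.9 in WT torin1. Rictor differed by -0.10 ± 0.05 (adjusted p = 0.105), Akt1s1 by 0.18 ± 0.05 and Mapkap1 by 0.12 ± 0.06. Under MK-8722, 6 of the 8 were called, against 48.7% of all genes. Deptor had its largest difference there, 17.6 to 25.0 CPM in DKO against 7.92 to 11.2 CPM in WT, or 1.18 ± 0.12 on the log2 scale (adjusted p = 8.19e-09). Rptor (-0.69 ± 0.03), Rictor (-0.39 ± 0.06) and Mlst8 (-0.38 ± 0.04) were lower, and Rheb (0.50 ± 0.07) and Akt1s1 (0.30 ± 0.05) were higher. The Akt1s1 call was lost without DKO MK-8722 replicate 4 (0.23), the highest library at 131 CPM, and with library size alone (0.22). Mtor (-0.24 ± 0.03) and Mapkap1 (0.24 ± 0.06) were under the fold minimum, and passed it without WT MK-8722 replicate 4 (-0.27) and replicate 2 (0.27), respectively.

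**Figure D3:**
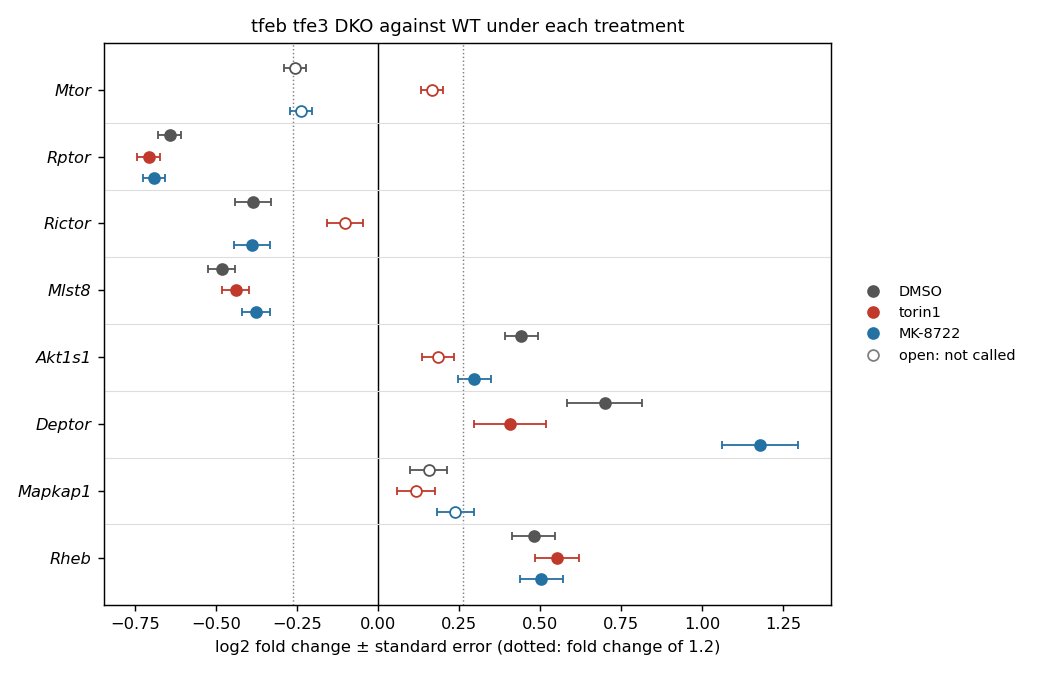
Log2 fold change of DKO against WT MEFs (x axis, ± standard error) for the 8 genes (y axis) under each treatment; filled points passed the call rule and dotted lines mark a fold change of 1.2. Rptor lies at -0.64, -0.71 and -0.69 under DMSO, torin1 and MK-8722, whereas Mtor changes side between DMSO (-0.26) and torin1 (0.17).

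Because RPTOR marks MTORC1 and RICTOR marks MTORC2, the ratio of Rptor to Rictor counts was taken within each library, where the scaling of libraries cancels. In WT DMSO the ratio was 1.49, 1.62, 1.46 and 1.40. In WT torin1 it was 0.903, 1.07, 0.920 and 1.005, below every control, so that the pair stood near equal counts. In DKO DMSO the ratio was 1.07, 1.23, 1.46 and 1.28, and in DKO torin1 it was 0.634, 0.656, 0.652 and 0.613, the lowest of the 6 groups. On the log2 scale torin1 moved the ratio by -0.62 in WT and by -0.97 in DKO. With MK-8722 the mean ratio was 1.55 in WT and 1.26 in DKO, differing from DMSO by 0.06 and 0.01 on the log2 scale (exact two-sided permutation p = 0.371 and 0.914, n = 4 each).

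An exact two-sided permutation test gave p = 0.0286 for torin1 in each line and for DKO against WT under torin1 (-0.61) and under MK-8722 (-0.30). That is the smallest p that 4 against 4 libraries allow. After Benjamini-Hochberg adjustment over the 7 ratio comparisons these exact tests stood at 0.05, which is not under the threshold. Under DMSO the lines overlapped (log2 difference -0.25, exact p = 0.0857, adjusted 0.12). The ratio of counts also depends on the lengths of the transcripts, and the mean ratio in TPM, per unit of length, was 2.53 in WT DMSO and 0.963 in DKO torin1. That TPM ratio sums all annotated transcripts, non-coding ones included. The coding transcripts with the most counts, Rptor-201 and Rictor-201, had 12.5 and 10.2 TPM in WT DMSO. In DKO torin1 they had 6.72 and 11.9 TPM.

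**Figure D4:**
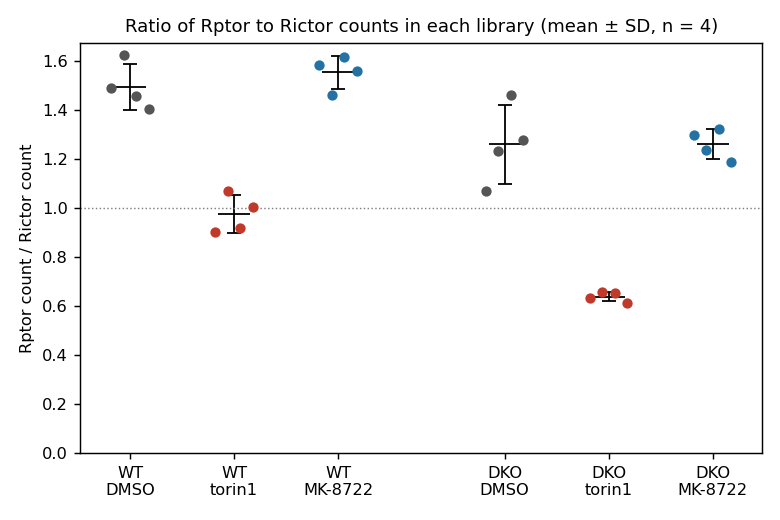
Ratio of Rptor to Rictor estimated counts in each library (linear axis from 0) by group; points are libraries, bars are the mean ± SD of 4 libraries, and the dotted line marks equal counts. WT torin1 (0.903 to 1.07) lies near the line and DKO torin1 (0.613 to 0.656) below it, while the DMSO and MK-8722 groups lie above it.

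Levels of different members can be compared only per length, in TPM. In WT DMSO Akt1s1 was the most abundant, at 118 ± 8.17 TPM (SD, n = 4), followed by Rheb at 69.2 ± 1.37 and Mapkap1 at 52.7 ± 4.02. Mlst8 (34.2 ± 2.41 TPM) and Rptor (30.2 ± 2.59 TPM) came next and overlapped with each other. Mtor (22.2 ± 0.391 TPM), Rictor (11.96 ± 0.436 TPM) and Deptor (2.54 ± 0.224 TPM) completed the order, each apart from its neighbour. By the transcript with the most counts, Mtor and Rictor were closer, with Mtor-202 at 11.9 TPM and Rictor-201 at 10.2 TPM. The short Mtor-201 and Mtor-204, with 3.68% and 1.41% of Mtor counts, added 6.99 and 3.22 TPM. Akt1s1, Rheb and Mapkap1 headed the order in all 6 groups, and Deptor closed it. In WT MK-8722 Rptor (33.6 ± 1.85 TPM) stood above Mlst8 (28.3 ± 1.18 TPM) without overlap. By the same sums, the middle of the order also shifted in DKO torin1. Rptor (13.9 ± 0.339 TPM) stood there below Mtor (21.9 ± 1.45 TPM) and overlapped with Rictor (14.4 ± 0.632 TPM). In WT DMSO Rptor-201 had 12.5 TPM, against 11.9 TPM for Mtor-202 and 6.99 TPM for Mtor-201, both coding. In DKO torin1 Rptor-201 had 6.72 TPM, Mtor-202 14.9 TPM and Rictor-201 11.9 TPM. Whether the order of Rptor and Mtor shifted in coding RNA was not tested. For Mlst8, the WT torin1 and WT DMSO levels were 34.5 and 34.2 TPM, while its log2 difference in CPM was -0.17 with TMM scaling and -0.08 (adjusted p = 0.132) with library size alone.

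The deposited annotation holds 62 transcripts of the 8 genes, of which 51 were among 57945 transcripts tested. With torin1, 4 rose and 8 fell in WT, against 22.8% of all transcripts called either way, and the counts were the same in DKO, against 22.3%. Most of the reads of 4 members went to a single transcript, Mtor-202 (94.6% of counts), Rictor-201 (95.7%), Deptor-202 (94.3%) and Rheb-201 (92.7%). Rptor was divided between the coding Rptor-201 (56.5% of counts) and Rptor-211 (31.6%), which is annotated as a target of nonsense-mediated decay. Both fell with torin1 in WT, by 0.34 and 0.31 on the log2 scale, and in DKO, by 0.27 and 0.43. In Mtor the full-length Mtor-202 rose with torin1 in DKO by 0.55 ± 0.05 (adjusted p = 6.12e-09). The short coding transcript Mtor-201, of 1003 bases, instead fell with torin1 in WT, by 0.67 ± 0.15 (adjusted p = 0.00117). Mtor-201 was also lower in DKO than in WT under DMSO, with a log2 difference of -1.10 ± 0.15 (adjusted p = 4.67e-06), where 9 member transcripts were called higher and 10 lower, against 24.8% of all transcripts. As a share of Mtor in TPM, Mtor-201 went from 31.4% in WT DMSO to 20.5% in WT torin1, 19.6% in DKO DMSO and 12.3% in DKO torin1. In the response to torin1, DKO minus WT, Mtor-202 was the one member transcript called, at 0.47 ± 0.07 (adjusted p = 2.26e-04), against 1.87% of transcripts. Transcripts of a gene share most of their reads, so these splits are estimates whose own error was not modelled.

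The genes around the complexes were read from 5 lists of 41 genes in all, each of which was tested. With torin1, 6 rose and 16 fell in WT, against 47.1% of all genes called, and 6 rose and 14 fell in DKO, against 43.2%, so the shares called were not far from those of genes in general. With MK-8722, 4 were called in each line, all of them higher, against 16.1% of all genes in WT and 8.69% in DKO. Among 8 other subunits and assembly factors, torin1 changed 2 in WT and 4 in DKO (against 47.1% and 43.2% of all genes), each time downward, with a list median of -0.09 in WT and -0.20 in DKO against 0.05 and 0.02 for all genes. The 2 in WT were Ruvbl2 (191 to 133 mean CPM, log2 fold change -0.52 ± 0.06) and Ruvbl1 (123 to 96.8 CPM, -0.35 ± 0.04), ATPases that help assemble MTOR and related kinases. Prr5 and Prr5l, which encode MTORC2-bound proteins, were lower in DKO. Prr5 had 0.502 CPM in DKO and 7.78 CPM in WT under MK-8722 (-3.93 ± 0.18), and Prr5l had 10.8 and 23.1 CPM under torin1 (-1.09 ± 0.08).

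Of 6 RHEB relatives and regulators, torin1 raised 2 and lowered 1 in each line, against 47.1% of all genes called in WT and 43.2% in DKO. Rhebl1, a RHEB homologue, rose in DKO from 6.65 to 14.1 mean CPM (1.09 ± 0.12), while Rheb itself fell. Tsc1, a subunit of the complex that inactivates RHEB, rose in WT from 58.1 to 93.8 CPM (0.69 ± 0.05). Between the lines 3 of the 6 were called under DMSO (against 48.2% of all genes), all lower in DKO, among them Tbc1d7, the third subunit of that complex, which under torin1 had 8.600 CPM in DKO and 15.5 CPM in WT (-0.85 ± 0.09). Rhebl1 was also lower in DKO under MK-8722 (-0.76 ± 0.12).

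Among 11 MTORC1 substrates torin1 raised 2 and lowered 6 in WT (against 47.1% of all genes called), and raised 2 and lowered 5 in DKO (against 43.2%). Eif4ebp1, a translational repressor, fell in WT from 236 to 97.2 mean CPM (-1.28 ± 0.12). Eif4ebp3 rose in DKO from 0.534 to 1.33 CPM (1.31 ± 0.38) and was lower in DKO than in WT under MK-8722, at 0.525 against 1.19 CPM (-1.16 ± 0.38). Grb10, an adaptor that dampens insulin signalling, had 2.96 CPM in DKO and 58.4 CPM in WT under torin1 (-4.30 ± 0.33). Of 9 MTORC2 substrates torin1 raised 1 and lowered 4 in WT (against 47.1% of all genes called), and raised 1 and lowered 2 in DKO (against 43.2%). Akt1 fell in WT from 406 to 237 CPM (-0.78 ± 0.04), and Sgk1 rose in DKO from 227 to 581 CPM (1.36 ± 0.18). Between the lines 5 of the 9 were higher in DKO under DMSO and 2 lower, against 48.2% of all genes called. Sgk1 was higher in DKO under torin1 (2.44 ± 0.19) and Sgk3 under MK-8722 (2.56 ± 0.10).

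The last list held 7 genes for the turnover of DEPTOR and MTOR by ubiquitin ligases of the SCF type. With torin1 1 rose and 3 fell in WT (against 47.1% of all genes called), and 1 rose and 2 fell in DKO (against 43.2%). Skp1a, the adaptor of these ligases, fell in WT from 163 to 114 mean CPM (-0.51 ± 0.04), and Rbx1, their RING subunit, fell in DKO from 71.7 to 49.1 CPM (-0.55 ± 0.04). Rbx1 was also lower in DKO than in WT under MK-8722 (-0.45 ± 0.04). Btrc, which encodes the F-box protein that recognises DEPTOR, had 30.5 CPM in DKO and 44.1 CPM in WT under torin1 (-0.53 ± 0.07).

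**Figure D5:**
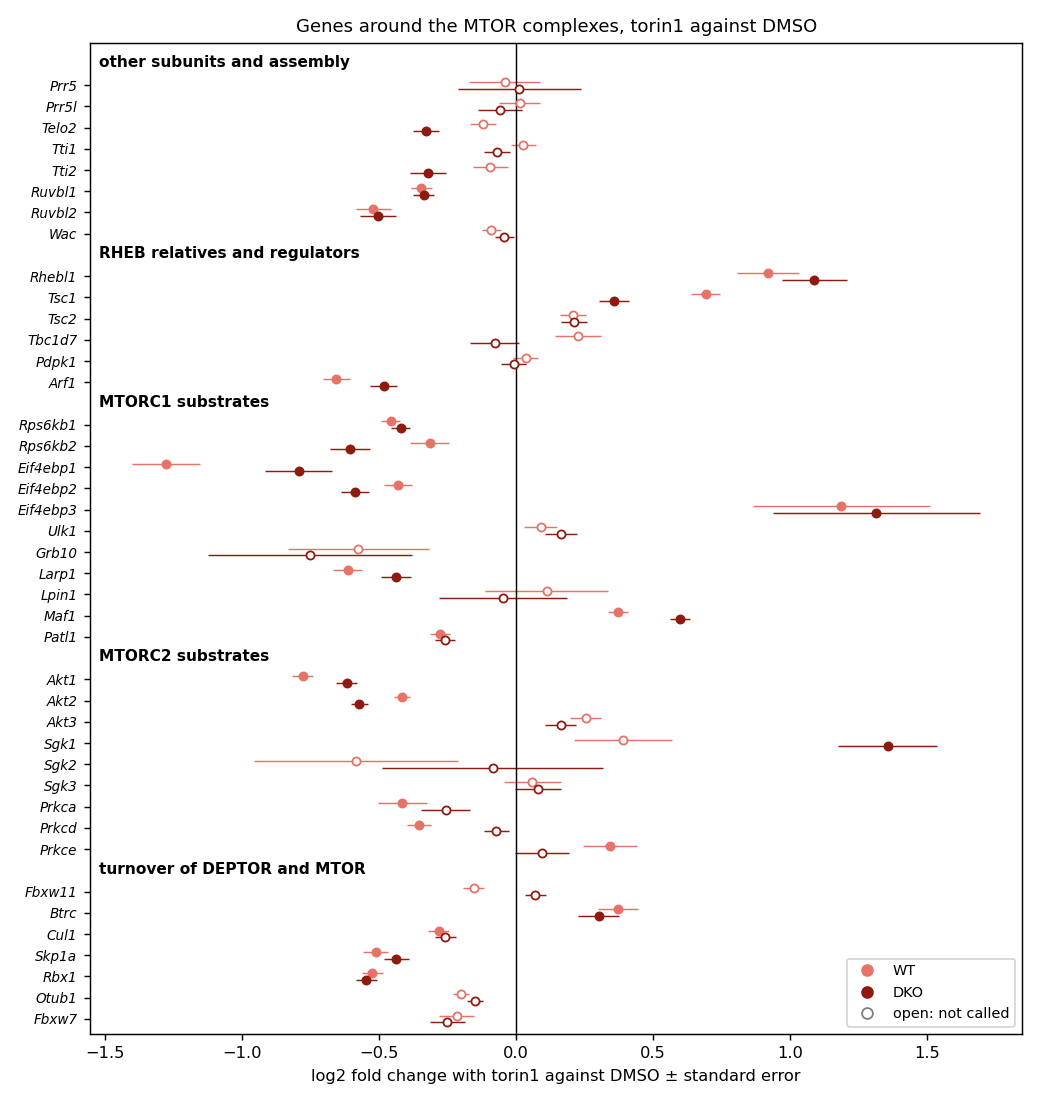
Log2 fold change with torin1 against DMSO (x axis, ± standard error) for the 41 genes of the 5 lists (y axis) in WT and DKO MEFs; filled points passed the call rule. Of the MTORC1 substrates, 6 of 11 in WT and 5 of 11 in DKO lie to the left as called genes, and Sgk1 in DKO (1.36) lies farthest to the right.

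The pattern of each member over the 24 libraries was last compared with those of 10658 well expressed genes, as a description without a test. Since all values come from the same libraries, group differences set most of each correlation. Rptor was followed most closely by Mia3 and Txndc12 (Pearson r = 0.989 for each). Rictor was nearest to Rprd2 (0.963) and Mcat (0.961), and Mtor to Tead2 (0.931) and Sec24b (0.922). Mlst8 was nearest to Pmf1 (0.968) and Pycrl (0.967), and Akt1s1 to Tada1 (0.932) and Cbr3 (0.931). Deptor was nearest to Cyp39a1 (0.931) and Cc2d2a (0.923), Mapkap1 to Slirp (0.953) and Ptpn11 (0.951), and Rheb to Usp12 (0.973) among the genes reported.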

How the data were processed

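The authors prepared poly(A) libraries (Universal Plus mRNA-seq, 52-bp paired-end reads) and, per the labels and the study's methods, processed the reads with nf-core/rnaseq, STAR and Salmon against GRCm38 (Ensembl release 102), with unique molecular identifiers taken into account. The deposited tables hold estimated counts per gene and, per library, estimated counts, TPM and effective lengths for 142699 transcripts. TPM values were made by the authors with Salmon and were used only for levels, shares and markers. The gene table equals the transcript sums, and no row lacked a gene name. Coordinates came from GENCODE M21 (GRCm38), which held 55141 of the 55487 gene identifiers.

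Counts were rounded and fitted with edgeR 4.0.16 (R 4.3.3) over all 24 libraries in 6 groups of 4, taken from the labels. TMM scaling (factors 0.95 to 1.08), filterByExpr with a minimum count of 10, the quasi-likelihood F-test of edgeR 3 with 18 residual degrees of freedom and Benjamini-Hochberg adjustment over 15401 genes were used. The biological coefficient of variation was 10.7%. A call required a 1.2-fold difference or more together with an adjusted p under 0.05, in each of 11 comparisons, and standard errors were the log2 fold change divided by the square root of F. Transcripts were fitted in the same way. The ratio of Rptor to Rictor was tested by exact permutation (scipy 1.17.1). The scripts were tested on simulated data. The authors' batch removal is not described by what it was applied to, all libraries here carry the same batch label, and no batch term was fitted.

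Alternatives covered the filter, the scaling, DESeq2 1.42.0, limma voom 3.58.1, the form of the quasi-likelihood method, the call rule, an effective-length offset, the libraries in the fit and blocks for replicate number and passage. From the lists, at most 2 called genes per list with the largest change over the drug comparisons, and 2 over the genotype comparisons, were named, and the 2 genes most correlated with each member. One gene that this rule names is not reported here. Totals of 24668921 to 33332562 counts set the counting precision. The members and lists were chosen with earlier results of these data known.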

Additional observations from a re-analysis of the deposited data

Results flagged for a closer look

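Of 48 groups of 4 libraries tested for a stray library among the 8 genes, 2 were marked by Dixon's criterion, and chance marks about 1 in 20. Rptor in WT DMSO replicate 2 was 102.2 CPM against 94.8 to 95.8 CPM in the other 3. Mapkap1 in DKO DMSO replicate 1 was 73.1 CPM against 68.9 to 69.6 CPM. Both were the highest library of their group.

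The response to torin1 differed between the lines for Mtor, by 0.42 on the log2 scale, and for Rictor, by 0.28, each by edgeR's test of the interaction term. For Mtor, 4 of 4 DKO torin1 libraries lay above all DKO DMSO libraries, while in WT the torin1 and DMSO ranges overlapped.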

How the results depend on the processing

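Of 88 pairs of member and comparison, 39 were called, 29 of these in every alternative, and all 39 kept their sign in all of them. Of all genes, 5.49% to 51.8% were called, depending on the comparison. How often calls of other genes were kept or gained over the alternatives was not counted. Of the 49 that were not called, 20 gained a call in at least 1 alternative. Without the filter on low counts or with it made stricter, with DESeq2 size factors and with the edgeR 4 method, the number of members called stayed within 1.5 times the reported one in each comparison. Library size alone gave 3 called members for torin1 in WT, against 7358 of all 15401 genes, and 1 for MK-8722 in WT, against 2482. Across all genes it moved the share of calls that were upward from 56.5% to 68.2% for torin1 in WT, from 46.3% to 31.9% for DKO against WT under torin1, from 42.5% to 26.5% for the response to torin1 and from 55.4% to 66.3% for torin1 against MK-8722 in WT. Testing against a fold change of 1.2 gave 2 for torin1 in WT, 0 for MK-8722 in WT and 1 for the response to torin1. Of all 15401 genes it called 5412, 956 and 454, respectively. The false discovery rate alone gave 2 for MK-8722 in DKO, against 3198 of 15401 genes, and 7 for torin1 against MK-8722 in WT, against 9190. For MK-8722 in WT, limma voom, the effective-length offset, the groups compared only and the fit without the WT libraries of passage 11 gave 1 each. Of all genes, these called 2547 and 2264 of 15401, 2344 of 14316 and 2288 of 15489, respectively. The effective-length offset and the fit without the DKO libraries of passage 8 gave 1 for the response to torin1. Of all genes, these called 1342 of 15401 and 1491 of 15601. DESeq2 and the passage blocks across and within the lines gave 1 for the response to MK-8722, against 932, 1091 and 1392 of 15401 genes. Leaving out single libraries gave 0 to 2 for MK-8722 in WT, 1 to 3 for the response to torin1, 0 to 1 for the response to MK-8722 and 3 to 5 for torin1 against MK-8722 in WT. Over all genes these fits called 2292 to 2641, 1426 to 1947, 735 to 968 and 6656 to 6969, respectively. For transcripts, DESeq2 gave 2 with MK-8722 in DKO, 3 in the response to torin1 and 1 in the response to MK-8722. In the same order, edgeR gave 0, 1 and 0 and called 1.56%, 1.87% and 0.858% of all transcripts. The shares of all transcripts that DESeq2 called are not given here, so its counts were not compared with transcripts in general. Rictor with torin1 in WT was at 0.23 without the WT libraries of passage 11 and was not called. Where no other value of these data shows it, the cause of these shifts was not tested.

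Replicate numbers did not pair the libraries: same-numbered libraries of a line correlated at -0.41 to 0.66 in their deviations from the group means, with 7 of 24 pairs over 0.1, and for libraries of the same passage this was 17 of 24. With replicate number as a block, 5 members were called for torin1 in WT and 6 in DKO, against 7279 and 6676 of all 15401 genes. The count of members changed in none of the 11 comparisons. Depth limits Deptor most, at 7.92 to 27.3 CPM.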
